A study of Mus musculus with 7 samples.

Results

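Arteriolar endothelial cells line the small arteries that carry blood from the brain's surface into the capillary bed. Arterial identity is known to be held by Notch signalling, in which Jagged and Delta-like ligands on a cell activate Notch receptors on its neighbour, and connexin gap junctions pass signals along the arterial wall. Brain arterioles are also known for richer caveolae than capillaries and for their part in matching blood flow to neuronal activity, whereas capillaries hold most of the solute transport of the blood-brain barrier. Among the barcodes of 7 droplet-based libraries from mouse brain vessels, 2148 of 31753 endothelial cell barcodes were arteriolar, out of 39315 barcodes that passed the filters. A barcode passed with at least 500 detected genes and at most 15% of its UMIs (unique molecular identifiers, counts of captured RNA molecules) from mitochondrial genes. It was endothelial when at least 3 of the 8 genes Pecam1, Cdh5, Cldn5, Flt1, Ly6c1, Egfl7, Itm2a and Eng were detected and Vtn, Acta2 and C1qa, which mark mural cells and microglia, gave at most 1 UMI together. It was arteriolar when it also had at least 3 of the 6 markers Bmx, Gkn3, Vegfc, Egfl8, Sema3g and Hey1, at most 1 of the large-artery matrix genes Fbln5, Cytl1, Eln and Mgp, and at most 2 of Cdh13, Ccn3, Lypd1, Pi16, Emp1 and Gask1b. The members were thus chosen by the detection of these genes, and their levels are given as a description, and the 34 genes that any gate used were left out of every test.

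The series profiled untreated C57Bl6 mice, with 3 libraries from mice of 12 months and 4 from mice of 3 months. For each library a single hemisphere, without cerebellum, brain stem and olfactory bulbs, was digested with collagenase, and vessels were caught with CD31 antibody on magnetic beads. The 12-month libraries were single-indexed and processed with Cell Ranger 4.0.0, the 3-month libraries dual-indexed and processed with Cell Ranger 6.1.1, so age and library set cannot be told apart. The labels state no sex and no animal identifiers, and p-values therefore measure the spread between these libraries. Ddx3y, a Y-linked gene, stood at 86.4, 94.2 and 72.5 CPM (UMIs of a gene per 1000000 UMIs of the sum) in the arteriolar cells of the 12-month replicates 1 to 3, and at 0, 0, 109 and 70.0 CPM in the 3-month replicates 1 to 4. The 3-month replicates 1 and 2 thus lacked the Y-linked transcript, and sex was not balanced across the ages.

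The libraries held 8706961 to 44861008 UMIs, and the arteriolar cells numbered 110, 418 and 432 at 12 months and 194, 274, 389 and 331 at 3 months. Gkn3, one of the markers of the gate, was detected in 54.7% to 86.6% of the members of a library, which the gate itself largely sets. The label can be read against arterial genes outside the gate, and these were mixed. Gja4, Efnb2 and Alpl were higher than in the capillary-gate cells defined below, while Nos3 and the Notch target Hes1 did not pass. On counts as deposited Hey2 was detected in a median of 0.516% of members over the libraries, against 0.314% of capillary-gate cells. Gja5 was detected in a median of 2.57% of members. Whether a marker is detected depends on a cell's depth, and the members' median UMI count was 1210.5 to 3156.5 in the 12-month libraries against 4356 to 7995.5 in the 3-month ones. Summed over the 6 markers, members held 2355 to 4258 CPM at 12 months and 932 to 1906 CPM at 3 months, and the deeper libraries thus held members with lower marker levels. Each cell of at least 1500 UMIs was also thinned to 1500 UMIs before the gates, and shallower cells were dropped. This left 34, 289 and 272 members at 12 months and 84, 91, 133 and 93 at 3 months, and their summed markers were 3514 to 4273 and 3024 to 4585 CPM. This equal-depth gate, with all UMIs of the cells it admitted summed, is given beside the results it bears on. Only the gating was at equal depth. The summed members still had a median of 1915 to 3764 UMIs in the 12-month libraries and 3736.5 to 8455 in the 3-month ones. In 12-month replicate 1 its 34 cells held 26368 CPM of choroid plexus transcripts, against 37.4 to 188 CPM over the 12-month libraries without thinning. The equal-depth gate also admitted more large-artery and mural RNA. In its sums Mgp had a median of 1334 CPM over the 7 libraries, against 231 CPM on counts as deposited, Fbln5 25.6 against 0.637 CPM, Eln 71.6 against 17.8 CPM, and the pericyte genes Rgs5 149 against 54.8 CPM and Vtn 25.6 against 2.89 CPM. On counts as deposited members held 0 to 8.79 CPM of fibroblast markers, 9.72 to 74.1 CPM of smooth muscle markers, 30.9 to 187 CPM of pericyte markers and 9127 to 39762 CPM of erythroid transcripts. The smooth muscle marker Cnn1 had no UMI in the members of any library, which allows 0.788 to 18.5 CPM per library at 3 UMIs. Of the members, 26 carried a barcode sequence that also occurred in another library, and none shared it with another member.

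The arteriolar share of endothelial barcodes was 2.98%, 8.13% and 5.73% in the 12-month libraries and 5.46%, 8.12%, 7.64% and 9.84% in the 3-month libraries. The ranges overlapped, and 12-month replicate 1, the shallowest library, was lowest. The mean was 5.61% ± 2.58 (SD, n = 3) at 12 months and 7.77% ± 1.80 (SD, n = 4) at 3 months, a difference of -2.15 percentage points (two-sided exact permutation test over 35 splits, p = 0.286). Dropping cells under 1500 UMIs left 1081, 4722 and 4906 endothelial barcodes at 12 months, against 3689, 5139 and 7544 on counts as deposited. At 3 months 3291, 3326, 4837 and 3268 were left, against 3552, 3376, 5089 and 3364. The thinned shares thus leave out shallow cells, and more of them in 12-month replicates 1 and 3. With the remaining cells thinned to 1500 UMIs the share was 3.15%, 6.12% and 5.54% at 12 months and 2.55%, 2.74%, 2.75% and 2.85% at 3 months. The groups no longer overlapped and the order of the ages turned, to a difference of 2.22 points (exact permutation p = 0.0286, the smallest this design allows, 0.0571 after adjustment over both shares). With Gkn3 left out of the markers the thinned difference was 0.833 points (exact permutation p = 0.0857). A lower share of captured cells and a lower capture or marker level per cell cannot be told apart in these shares.

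**Figure D1:**
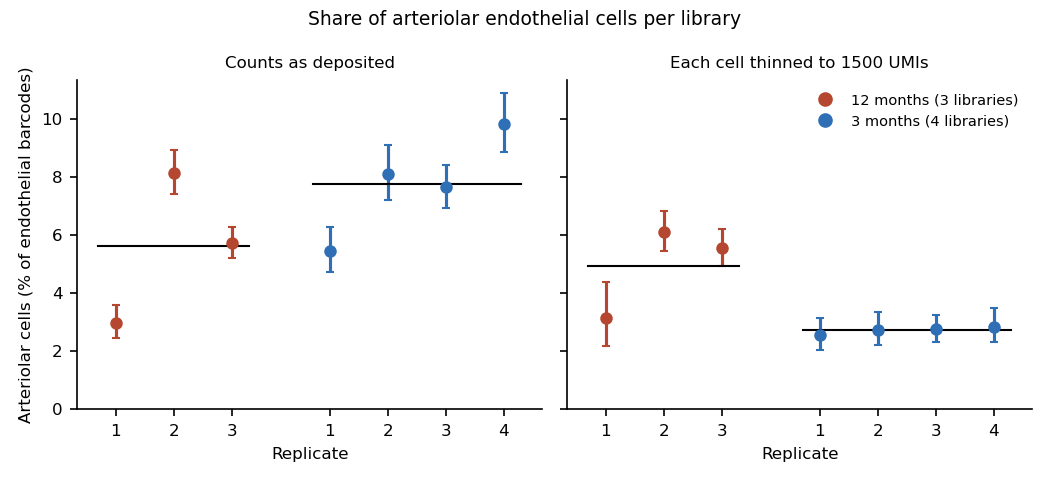
Arteriolar cells as a percentage of endothelial barcodes in each library (points; black lines are group means and bars show exact 95% binomial intervals, which cover counting error only), on counts as deposited and after thinning to 1500 UMIs, with cells under 1500 UMIs dropped. The ages overlap on counts as deposited, and after thinning the 12-month libraries sit at 3.15% to 6.12%, above the 3-month libraries at 2.55% to 2.85%.

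Among equally deep cells, genes outside the gate differed step by step with the number of arteriolar markers detected. Cells of at least 1500 UMIs were thinned to 1500 UMIs, and endothelial cells within the 2 upper limits of the gate were sorted by 0, 1, 2, 3 and at least 4 markers. This gave 18475, 3740, 1296, 595 and 401 cells, with only 14 to 112 cells a library in the last bin. Since the bins are steps of the rule, these levels are a description and carry no test. The large-artery limit was applied after thinning, where it let in more large-artery RNA. Cells gated in this way had a median of 1334 CPM of Mgp, against 231 CPM for members on counts as deposited. The part of large-artery cells in the steps was not tested. Notch ligands summed to 257 ± 40.2 CPM (mean and SD over 7 libraries) in cells with no marker, 581 ± 89.9 CPM in cells with 2, just outside the threshold, 652 ± 166 CPM in cells with 3, just inside it, and 754 ± 171 CPM in cells with 4 or more. Notch receptors went from 258 ± 35.3 CPM with no marker to 368 ± 68.5 CPM with 2 and 488 ± 152 CPM with 3. For both lists the SDs of the bins with 2 and with 3 markers, on either side of the threshold, overlapped. Alpl, alkaline phosphatase, a histochemical marker of brain arterioles and arterial capillaries, stood at 87.0 ± 25.0, 242 ± 65.5, 423 ± 69.0, 541 ± 104 and 592 ± 121 CPM over the 5 bins. Tmem100, a membrane protein induced by BMP9 and ALK1 signalling, went from 10.5 ± 3.24 to 237 ± 69.8 CPM over the same bins.

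Other genes were lower at each step or highest within the series. Car4, the carbonic anhydrase of the capillary surface, went from 760 ± 201 CPM with no marker through 346 ± 127, 87.4 ± 27.0 and 34.2 ± 21.1 to 24.3 ± 34.9 CPM with 4 or more. Metallothionein Mt1 went from 939 ± 229 to 115 ± 98.7 CPM, and Tfrc, the transferrin receptor, from 378 ± 115 to 72.2 ± 43.0 CPM. Cxcl12, a chemokine secreted by endothelium, was highest in cells with 1 marker, at 3690 ± 794 CPM, against 2807 ± 790 CPM with none and 1760 ± 480 CPM with 4 or more. Slc2a1, the glucose transporter GLUT1 of the barrier, differed the other way, from 1347 ± 207 to 2139 ± 359 CPM, while the summed capillary markers went from 5460 ± 1285 to 3306 ± 613 CPM.

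**Figure D2:**
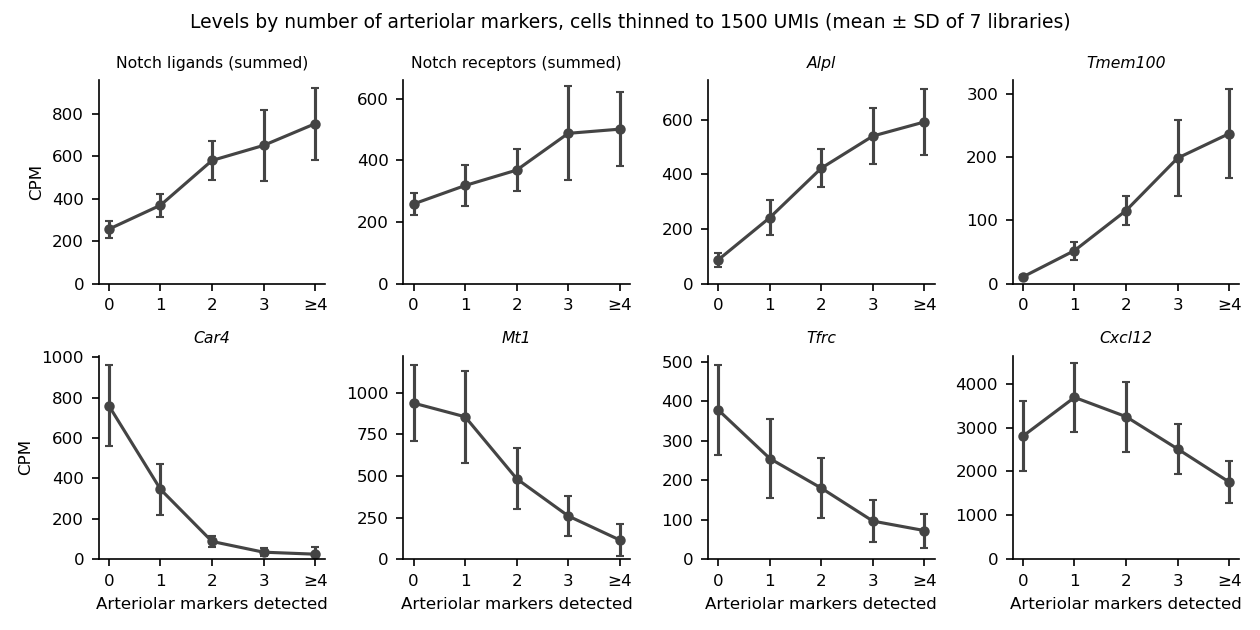
Level in CPM of 2 summed gene lists and 6 genes, as the mean and SD over the 7 libraries, against the number of arteriolar markers detected in endothelial cells thinned to 1500 UMIs. Notch ligands, Alpl and Tmem100 stand higher with each marker, Car4 and Mt1 stand lower, and Cxcl12 is highest with 1 marker.

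Arteriolar cells were next compared with capillary-gate cells of the same libraries, 15178 cells with none of the 6 arteriolar markers and few venous or fenestrated ones. UMIs were summed over each class and library and tested with edgeR's quasi-likelihood test with the library as a block. Arteriolar cells had higher levels of 3 of 4 Notch ligands and of the arterial genes Efnb2, Unc5b, Gja4 and Alpl, and lower levels of 16 of 26 solute carriers and 9 of 21 Wnt and barrier regulators. Nos3 and the Notch target Hes1 did not pass. Of 10517 genes, 2259 (21.5%) passed at an adjusted p under 0.05, 1249 higher (11.9%) and 1010 lower (9.6%), and the median log2 fold change over all genes was -0.01. The members were also deeper, with a median of 1210.5 to 7995.5 UMIs per cell against 952 to 4126. Under the equal-depth gate 2478 genes passed, and 1566 passed under both gates, 69.3% of the first list and 63.2% of the second. The members it admitted were still deeper than its capillary cells, except in 12-month replicate 1. In 3-month replicate 2 the medians were 8455 and 5306 UMIs.

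Genes of the Notch pathway were higher at the level of ligands and receptors. Of 4 Notch ligands 3 were higher (median log2 fold change 0.81), of 3 tested receptors 2 were higher (median 0.58), and of 12 targets and modifiers 1 was higher and 1 lower (median -0.02). The ligand Jag2 ranged from 220 to 390 CPM over the arteriolar sums (median 299) and from 120 to 158 CPM over the capillary sums (median 137), with no overlap. Its log2 fold change was 1.01 ± 0.08 (SE; edgeR adjusted p = 1.9e-09). The ligand Dll4 stood at 102 to 181 CPM (median 123) against 21.8 to 84.6 CPM (median 69.5), again without overlap, with a log2 fold change of 0.93 ± 0.10 (edgeR adjusted p = 2.21e-07). Under the equal-depth gate these changes were 1.60 and 1.72. Jag1, Notch4 and Notch1 rose by 0.69, 0.68 and 0.58, while the Notch target Hes1 differed by -0.04 (edgeR adjusted p = 0.668). Efnb2, ephrin-B2, an arterial guidance ligand, ranged from 84.8 to 167 CPM (median 122) against 21.7 to 43.8 CPM (median 28.1), a log2 fold change of 1.95 ± 0.09 (edgeR adjusted p = 4.76e-13). The guidance receptor Unc5b had 92.6 to 252 CPM (median 171) against 22.4 to 55.9 CPM (median 41.5), a log2 fold change of 1.98 ± 0.07 (edgeR adjusted p = 1.8e-14). Neither gene's classes overlapped in any library.

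Of 34 endothelial transcription factors, 10 were higher and 6 lower (median 0.02). Sox18, Epas1, Gata2 and Sox17, regulators of arterial and endothelial fate, were among the higher ones at 0.69, 0.63, 0.63 and 0.48. The shear-responsive factors Klf2 and Klf4 differed by 0.09 and 0.13 (edgeR adjusted p = 0.557 and 0.214).

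The named genes with the largest rises had varied roles. Syt15, a synaptotagmin, had 26.7 to 117 CPM (median 37.1) in arteriolar sums and 0.436 to 2.17 CPM (median 1.36) in capillary sums, a log2 fold change of 4.93 ± 0.20 (edgeR adjusted p = 6.24e-14). Col18a1, the basement membrane collagen that yields endostatin, had 23.6 to 185 CPM (median 55.9) against 1.03 to 7.45 CPM (median 1.5), a log2 fold change of 4.60 ± 0.14 (edgeR adjusted p = 3.48e-16). The lowest arteriolar library stood above the highest capillary library for both. Tmem100 rose by 4.07 ± 0.12, Atp2b4, a plasma membrane calcium pump, by 4.03 ± 0.13, and Fbln2, an extracellular fibulin, by 3.65 ± 0.08 on the log2 scale. Gja4, connexin 37 of arterial gap junctions, had 17.6 to 99.6 CPM (median 54.8) against 1.31 to 6.92 CPM (median 4.12), a log2 fold change of 3.78 ± 0.15 (edgeR adjusted p = 4.55e-14). Alpl ranged from 270 to 585 CPM (median 319) against 51.3 to 128 CPM (median 68.4), and rose by 2.21 ± 0.07 (edgeR adjusted p = 3.48e-16). Of the 3 connexins tested Gja4 and Gja1 were higher and Gjc1 was lower, at -0.61.

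Of 20 vasoactive genes 11 were higher and 6 lower (median 0.30), and under the equal-depth gate 7 of 17 were higher and 7 lower. Edn1, the vasoconstrictor endothelin 1, had 349 to 657 CPM (median 449) against 139 to 295 CPM (median 236), a log2 fold change of 1.13 ± 0.06 (edgeR adjusted p = 3.89e-12). Nos3, the endothelial nitric oxide synthase, had 173 to 224 CPM against 178 to 220 CPM, a log2 fold change of -0.02 ± 0.05 (edgeR adjusted p = 0.891). The endothelin ranges did not meet, whereas those of Nos3 nearly coincided. Of 11 ion channel and calcium genes of vascular tone 5 were higher and 1 lower, among them the inward rectifier Kcnj2 at 0.87 and the receptor channel Itpr3 at 0.98. Of 11 caveolar genes 6 were higher and 1 lower (median 0.36), including Ehd2 at 0.98 and Cavin3 at 0.83, while Cav1, the main caveolar coat protein, differed by 0.05 (edgeR adjusted p = 0.65).

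Of 22 TGF-beta and BMP genes 10 were higher and 3 lower (median 0.12). Tgfb2, a TGF-beta ligand, had 228 to 563 CPM (median 385) against 79.8 to 196 CPM (median 135) and rose by 1.52 ± 0.05 (edgeR adjusted p = 1.97e-15). The inhibitory Smad gene Smad6 rose by 1.14 and the secreted protease Htra1 by 0.93. Of 23 matrix genes 11 were higher and 5 lower, and of 34 cytoskeletal genes 16 were higher and 4 lower. These included the matrix protease inhibitor Timp3 at 1.14 and the myosin light chain kinase Mylk at 2.38.

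**Figure D3:**
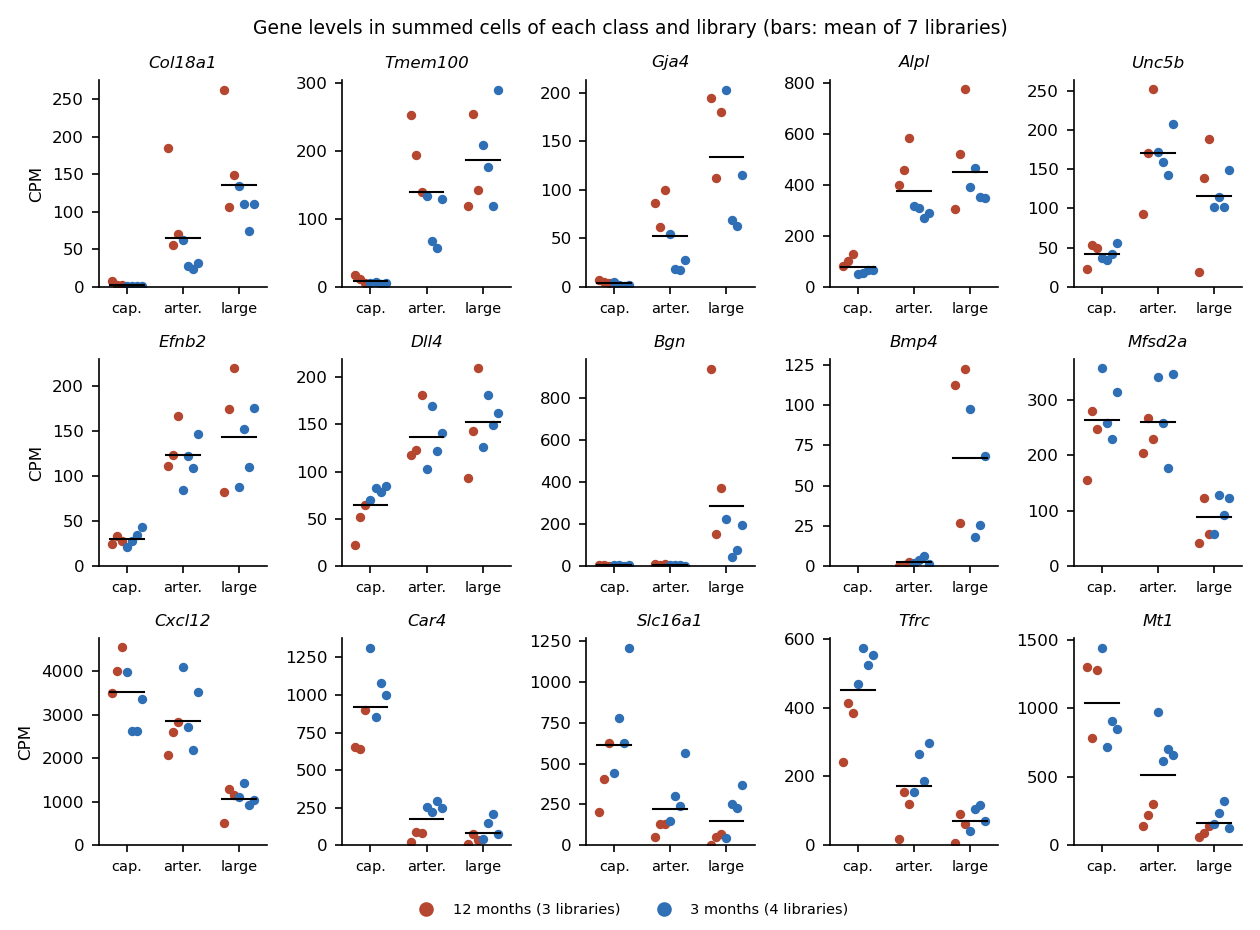
CPM per library (points; black lines are means of the 7 libraries) of selected genes in sums over capillary-gate (cap.), arteriolar (arter.) and large-artery-gate (large) cells, on linear axes from 0. Arteriolar means lie between those of the other classes for Gja4 and Col18a1, above both for Unc5b, and for Bmp4, which was not tested against capillary cells, below the large-artery sums.

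Genes of class I antigen presentation and of the interferon response were higher more often than lower, and those of class II lower. Of 20 class I genes 15 were higher and none lower (median 0.34), and under the equal-depth gate 16 of 19 were higher and 2 lower. Psmb8 and Psmb9, subunits of the immunoproteasome, rose by 0.44 and 0.50, and H2-Q7, whose reads may be split with near-identical copies, by 1.22. Of 33 interferon genes 17 were higher and 1 lower (median 0.19), with Irf7 at 0.76 and Ifitm3 at 0.68. Of 5 class II genes tested 4 were lower and none higher (median -1.18), namely H2-Ab1, H2-Aa, H2-Eb1 and Cd74 at -1.39, -1.29, -1.18 and -1.01, named here after their values were seen. The 1 class II gene tested under the equal-depth gate was also lower. Markers of microglia and macrophages, cells that express class II genes, summed to 7.32 to 111 CPM in arteriolar sums and 14.1 to 186 CPM in capillary sums, and their part in that result was not tested. Lists of stress and synthesis genes depended on the gate: of 23 immediate early genes 9 were higher and 1 lower on counts as deposited, but 5 higher and 14 lower under the equal-depth gate. Of 89 ribosomal protein genes 8 were higher and 8 lower, but 2 of 86 were higher and 67 lower under the equal-depth gate.

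Barrier transport was lower in arteriolar cells, with exceptions. Of 26 solute carriers 16 were lower and 6 higher (median -0.43), of 12 uptake receptors 8 were lower and 2 higher (median -0.38), and of 21 Wnt and barrier regulators 9 were lower and 1 higher (median -0.16). Car4 had 18.5 to 297 CPM (median 223) against 640 to 1313 CPM (median 901), a log2 fold change of -2.40 ± 0.14 (edgeR adjusted p = 2.7e-11), and -4.13 under the equal-depth gate. Slc16a1, the lactate transporter MCT1, had 49.4 to 562 CPM (median 148) against 204 to 1207 CPM (median 623), a log2 fold change of -1.55 ± 0.09 (edgeR adjusted p = 2.13e-11). The Car4 ranges did not overlap, while those of Slc16a1 did, with the arteriolar sum lower in every library. Tfrc fell by 1.39 and the glutamate transporter Slc1a1 by 1.20. Slc38a5, an amino acid transporter that is also high in veins, fell by 1.18, and by 4.42 under the equal-depth gate. Apcdd1 and Nkd1, Wnt inhibitors induced by the pathway itself, fell by 1.05 and 0.69. Slc2a1 went the other way, with 1532 to 2740 CPM (median 1813) against 1171 to 2051 CPM (median 1317) and a log2 fold change of 0.40 ± 0.05 (edgeR adjusted p = 4.56e-06). The efflux pump Abcb1a and the lipid transporter Mfsd2a differed by -0.12 and -0.09 (edgeR adjusted p = 0.139 and 0.298).

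Of 14 metallothionein and hypoxia genes 7 were lower and none higher (median -0.38). Mt1 had 142 to 971 CPM (median 614) against 719 to 1441 CPM (median 909), a log2 fold change of -1.02 ± 0.20 (edgeR adjusted p = 0.000521), and -2.44 under the equal-depth gate. The ranges overlapped for Mt1, whose arteriolar level differed between ages as described further on. Of 13 mitochondrially encoded genes 12 were lower and none higher (median -0.30). Ttr, a choroid plexus transcript, was also lower, at -1.74 ± 0.27, but at -0.29 under the equal-depth gate (edgeR adjusted p = 0.7). Choroid plexus markers summed to 1.27 to 504 CPM in arteriolar sums and 3.63 to 2460 CPM in capillary sums, and their part in that result was not tested.

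The promoters of 3 of these genes show what sequence stands before a gene that is high in arteriolar cells (Gja4, Atp2b4) and before the one with the largest fall (Car4). Windows reach from 250 bases before the RefSeq start to 50 after it on GRCm38.p6, 5′ to 3′ on the gene's strand. Capitals mark TGGGAA, the core of the site of the Notch effector RBPJ, and AACAAT, a core of SOX sites, each searched on both strands (also as TTCCCA and ATTGTT). The windows lie at chr4:127313990-127314289 on the minus strand for Gja4, chr1:133753698-133753997 on the minus strand for Atp2b4 and chr11:84957504-84957803 on the plus strand for Car4.
Gja4: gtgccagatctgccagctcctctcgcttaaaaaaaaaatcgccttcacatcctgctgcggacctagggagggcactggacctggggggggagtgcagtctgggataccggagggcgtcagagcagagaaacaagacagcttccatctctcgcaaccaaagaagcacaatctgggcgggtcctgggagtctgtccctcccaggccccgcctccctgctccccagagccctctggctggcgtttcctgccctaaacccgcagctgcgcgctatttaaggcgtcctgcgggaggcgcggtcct
Atp2b4: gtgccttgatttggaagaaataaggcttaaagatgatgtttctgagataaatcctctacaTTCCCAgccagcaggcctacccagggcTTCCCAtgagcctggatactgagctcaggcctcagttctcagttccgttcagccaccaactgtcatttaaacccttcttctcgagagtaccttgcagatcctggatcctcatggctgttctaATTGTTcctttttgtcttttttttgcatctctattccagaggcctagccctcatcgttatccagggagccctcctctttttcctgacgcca
Car4: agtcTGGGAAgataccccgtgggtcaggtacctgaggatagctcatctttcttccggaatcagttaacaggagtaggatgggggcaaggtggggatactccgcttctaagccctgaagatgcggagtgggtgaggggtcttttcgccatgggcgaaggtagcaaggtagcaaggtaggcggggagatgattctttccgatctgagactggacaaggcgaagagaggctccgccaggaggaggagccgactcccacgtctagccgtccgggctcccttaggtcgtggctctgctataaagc
The Atp2b4 window held TGGGAA at -190 and -163 and AACAAT at -41 from the start, the Car4 window held TGGGAA at -246, and the Gja4 window held neither. Of 32851 windows over all genes 25.6% held TGGGAA and 10.7% held AACAAT. Of the 8 genes with the largest named rises 6 had a window in the table, with 7 windows, of which 2 held TGGGAA and 1 held AACAAT. A match describes letters in the window and not a site in use.

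The second comparison was with large-artery-gate cells, 846 cells that also had at least 3 arteriolar markers but at least 2 of the matrix genes Fbln5, Cytl1, Eln and Mgp. Arteriolar cells had lower levels of 12 of 25 matrix genes, with 7 higher, and higher levels of 15 of 25 solute carriers, with none lower. The gates split these classes by matrix genes, so the count of other matrix genes may be set in part by the gate. It is given as a description. Of 8737 genes 1052 (12%) passed in edgeR's test, 437 higher (5%) and 615 lower (7.04%) in arteriolar cells, with a median of 0.0045 over all genes. Under the equal-depth gate 811 passed, and 591 passed under both. On counts as deposited the large-artery-gate cells were deeper than the members in every library. Their median was 1971 to 10122 UMIs per cell, against 1210.5 to 7995.5 in members.

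Fblim1 and Bgn separated the classes by a wide margin. Fblim1, a filamin-binding adhesion protein, had 0 to 1.03 CPM (median 0.525) in arteriolar sums and 13.7 to 187 CPM (median 35) in large-artery sums, a log2 fold change of -5.80 ± 0.33 (edgeR adjusted p = 1.49e-12). Bgn, the proteoglycan biglycan, had 2.87 to 12.3 CPM (median 4.45) against 42.8 to 940 CPM (median 196), a log2 fold change of -4.96 ± 0.18 (edgeR adjusted p = 6.42e-17). Neither gene's ranges overlapped. Bmp4, a BMP ligand, had 0 to 6.04 CPM (median 1.77) against 18.2 to 122 CPM (median 68.2), a log2 fold change of -3.93 ± 0.32 (edgeR adjusted p = 8.52e-10). Hey2, a Notch target, had 0 to 2.39 CPM (median 0.883) against 10.7 to 29.0 CPM (median 15.0), a log2 fold change of -3.75 ± 0.34 (edgeR adjusted p = 4.87e-09). Hey2 was thus near the level of a few UMIs in arteriolar sums. Gja5, connexin 40, had 2.05 to 18.5 CPM (median 4.42) against 17.9 to 74.7 CPM (median 35.9), a log2 fold change of -2.44 ± 0.23 (edgeR adjusted p = 1.62e-08). Gja4 was lower than in large arteries by -1.53 ± 0.13, with 17.6 to 99.6 CPM against 63.2 to 203 CPM, although it stood above capillary cells. Col18a1, Mylk and Atp2b4, also above capillary cells, were below large-artery cells at -1.41, -1.40 and -1.23.

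Of 4 Notch ligands 3 were lower than in large arteries on counts as deposited, led by Jag1 at -1.07, but only 1 of 3 under the equal-depth gate. Jag2, Efnb2 and Alpl, at -0.29, -0.25 and -0.33, were at 0.01, 0.13 and 0.05 under that gate and did not keep their direction. Edn1 and Nos3 fell by 0.58 and 0.36. Unc5b was higher in arteriolar cells than in large arteries as well, at 0.49 ± 0.08 (edgeR adjusted p = 3.54e-05). Gja1, connexin 43, was higher at 0.51, so that the connexins split: Gja4 and Gja5 were lower and Gja1 and Gjc1 higher.

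Barrier genes stood above large-artery cells. Of 25 solute carriers 15 were higher and none lower (median 0.50), of 11 uptake receptors 5 were higher and none lower, and all 7 capillary markers were higher (median 1.23), 6 of them under the equal-depth gate. Mfsd2a, the transporter of docosahexaenoic acid that restrains transcytosis, had 177 to 346 CPM (median 258) against 41.2 to 128 CPM (median 92.4), a log2 fold change of 1.36 ± 0.11 (edgeR adjusted p = 9.42e-10). Cxcl12 had 2074 to 4098 CPM (median 2712) against 517 to 1432 CPM (median 1118), a log2 fold change of 1.40 ± 0.10 (edgeR adjusted p = 5.45e-11). For both, every arteriolar sum lay above every large-artery sum. Slc1a1 rose by 1.73, Mt1 by 1.61 and Slc7a5, an amino acid transporter, by 1.23. Mt1 and Slc1a1 were below capillary cells and above large-artery cells, as was Tfrc at 1.22. Of 87 ribosomal protein genes 60 were lower and none higher (median -0.27). Hba-a1 and Hba-a2, erythroid globins with shared sequence, were higher at 1.69 and 1.63, and the part of red cell RNA in the comparison was not tested.

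The third comparison was with the cells the last limit of the gate removed, which carry at least 3 of Cdh13, Ccn3, Lypd1, Pi16, Emp1 and Gask1b beside 3 arteriolar markers. Only 189 such cells were found, and 3-month replicate 1, with 7, was left out, so this test rests on 6 libraries. Of 6221 genes 344 (5.53%) passed in edgeR's test, 142 higher (2.28%) and 202 lower (3.25%) in arteriolar cells. The equal-depth gate left too few of these cells for a test. In each of the 6 libraries these cells were deeper than the members, with a median of 1914 to 12401 UMIs against 1210.5 to 7995.5. Their sums were small, and in 12-month replicate 1 held 11 cells and 25366 UMIs. There 1 UMI is worth 39.4 CPM, and in 12-month replicate 3 it is worth 11.6 CPM.

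Arteriolar cells had lower levels of 9 of 23 immediate early genes and 6 of 19 matrix genes than these neighbours, and higher levels of 13 of 22 solute carriers. S100a6, a calcium-binding S100 protein, had 9.57 to 290 CPM (median 44.2) against 55.0 to 828 CPM (median 427), a log2 fold change of -3.02 ± 0.17 (edgeR adjusted p = 1.52e-18). Npnt, the integrin ligand nephronectin, had 15.0 to 55.5 CPM (median 20.1) against 47.3 to 158 CPM (median 123), a log2 fold change of -2.36 ± 0.18 (edgeR adjusted p = 1.99e-13). Ranges overlapped for both, with the arteriolar sum lower within each of the 6 libraries. The orphan receptor Nr4a2 had 56.8 to 104 CPM (median 84.7) against 172 to 360 CPM (median 246), without overlap, a log2 fold change of -1.65 ± 0.15 (edgeR adjusted p = 7.05e-12). Of 23 immediate early genes 9 were lower and 1 higher (median -0.33), of 33 cytoskeletal genes 8 were lower and 2 higher, and of 32 transcription factors 7 were lower and none higher. Cav1, which did not pass against capillary cells, had 272 to 419 CPM (median 363) against 511 to 639 CPM (median 586), a log2 fold change of -0.62 ± 0.08 (edgeR adjusted p = 1.87e-07).

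On the other side, 13 of 22 solute carriers were higher and 2 lower (median 0.53), and 6 of 7 capillary markers were higher and none lower. Slc38a5 had 6.17 to 263 CPM (median 81.0) against 0 to 38.4 CPM (median 19.4), a log2 fold change of 2.37 ± 0.21 (edgeR adjusted p = 7.05e-12). Vwf, von Willebrand factor, had 240 to 510 CPM (median 294) against 91.0 to 182 CPM (median 105), a log2 fold change of 1.59 ± 0.13 (edgeR adjusted p = 2.42e-12). The Vwf ranges stayed apart, while those of Slc38a5 overlapped. Apoe, apolipoprotein E, rose by 0.93 ± 0.10 and Mfsd2a by 0.79. Of 3 Notch ligands 1 was lower, Jag2 at -0.55 ± 0.09 (edgeR adjusted p = 3.05e-05), and of 3 connexins 1 was higher, Gja1 at 0.64 ± 0.18 (edgeR adjusted p = 0.0231). The arterial genes Gja4, Efnb2, Unc5b, Dll4, Notch1 and Nos3 did not pass, with log2 fold changes of -0.15, -0.32, -0.11, 0.28, 0.02 and -0.07. For Efnb2 and Dll4 the lowest sum of the Ccn3 and Lypd1 cells, at 39.4 CPM, rests on 1 UMI. With sums this small, genes that did not pass are not shown to be equal between the classes.

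Age was compared within arteriolar cells as 12 months over 3 months. Higher at 12 months were, among others, Fam71a, Nos1 and Clu, the immediate early genes Fos and Atf3, and Socs3, and these passed under either gate. Under both gates the members' summed large-artery markers were also higher at 12 months, as given below. Passing under either gate thus does not separate age from large-artery RNA, whose part was not tested. Of 9541 genes 183 (1.92%) passed in edgeR's test, 133 higher (1.39%) and 50 lower (0.524%) at 12 months, and the median log2 fold change was -0.03. Under the equal-depth gate 63 passed, and 41 passed under both gates, 22.4% of the 183 and 65.1% of the 63. Leaving out single libraries gave 73 to 547 genes, with 547 without 3-month replicate 1 and 112, 73 and 79 without the 12-month replicates 1 to 3. Of the 49 genes named for age that passed, 19 passed whichever library was left out. The sums of 12-month replicate 1 rested on 162044 UMIs, where 1 UMI is worth 6.17 CPM, against 1132144 to 3806172 UMIs in the other libraries.

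Of 23 immediate early genes 6 were higher and none lower (median 0.51), and 9 were higher under the equal-depth gate. Fos, a subunit of AP-1, stood at 3252, 2747 and 2626 CPM in the 12-month replicates 1 to 3 and at 1092, 1125, 909 and 676 CPM in the 3-month replicates 1 to 4. Every 12-month library lay above every 3-month one, and the log2 fold change was 1.64 ± 0.23 (edgeR adjusted p = 0.0015), and 1.99 under the equal-depth gate. Atf3, a stress-induced factor of the ATF family, stood at 592, 392 and 387 CPM against 102, 103, 74.1 and 57.3 CPM. The groups did not overlap, with a log2 fold change of 2.47 ± 0.24 (edgeR adjusted p = 5.8e-05), and 2.65 under the equal-depth gate. Socs3, the inhibitor of cytokine receptor signalling, stood at 197, 151 and 185 CPM against 56.5, 48.6, 61.5 and 43.0 CPM. It rose by 1.81 ± 0.19 (edgeR adjusted p = 0.00011), and by 2.38 under the equal-depth gate, again without overlap. Fosb rose by 2.01 ± 0.40 (edgeR adjusted p = 0.017), with up to 0.11 when a library was left out. Of 14 heat shock genes 1 passed, Hsph1 at 1.44.

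Fam71a, a gene without a settled function in these cells, gave the largest difference among the named genes. It stood at 49.4, 119 and 65.3 CPM at 12 months and at 0.883, 0.342, 0.263 and 0.318 CPM at 3 months, with a log2 fold change of 7.78 ± 0.43 (edgeR adjusted p = 1.2e-07). The gene lies at chr1:191162584-191164817 on the minus strand. The capillary sums had 77.2, 79.0 and 43.8 CPM against 0.333, 0.444, 0.545 and 0 CPM, and the age difference of the classes differed by 0.38 ± 0.93 (edgeR adjusted p = 0.94).

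**Figure D4:**
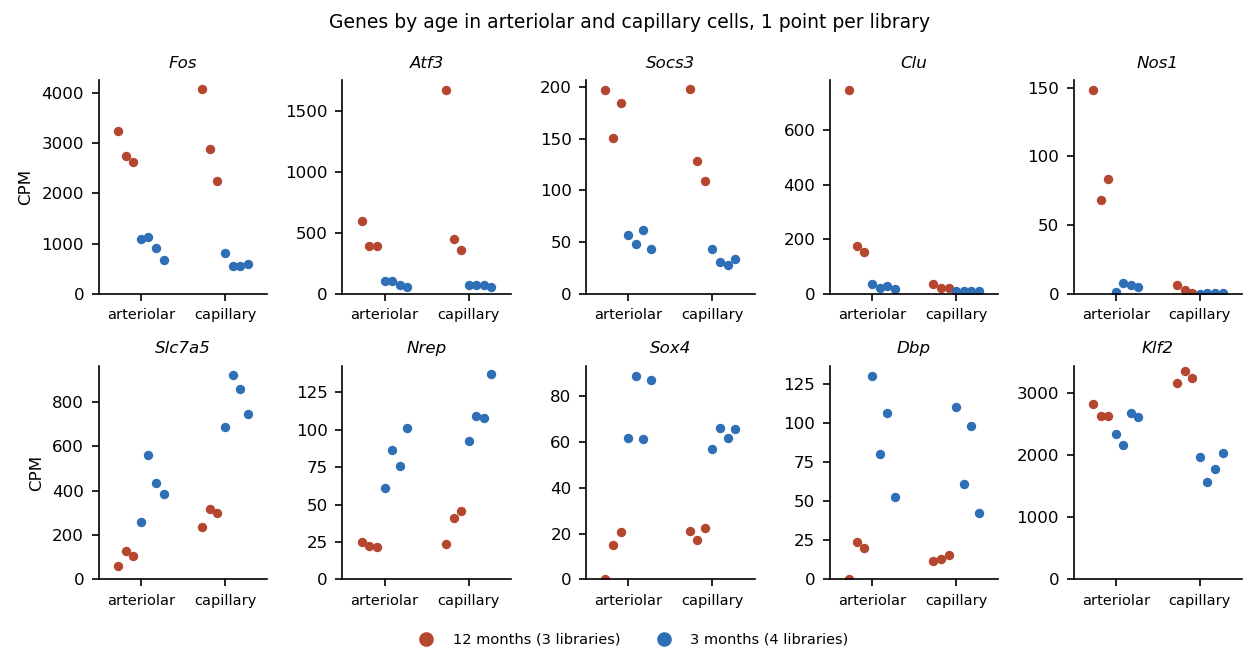
CPM per library (points) of 9 genes that passed for age and of Klf2, which did not, in arteriolar and capillary-gate sums of the 12-month and 3-month libraries. In arteriolar sums Fos, Atf3 and Socs3 are higher in all 3 libraries of 12 months than in the 4 of 3 months, and Slc7a5 and Nrep are lower.

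Clu, Nos1 and several genes of arteries and matrix were also higher at 12 months, and these differences were smaller under the equal-depth gate. Clu, the secreted chaperone clusterin, stood at 747, 174 and 153 CPM against 37.1, 20.9, 30.0 and 16.9 CPM, a log2 fold change of 3.63 ± 0.45 (edgeR adjusted p = 0.00042). Under the equal-depth gate it was 1.60 (edgeR adjusted p = 0.0041). In large-artery-gate sums Clu had 217 to 1654.5 CPM over the 7 libraries. Nos1, the neuronal nitric oxide synthase, stood at 148, 68.4 and 83.7 CPM against 0.883, 7.86, 6.04 and 4.78 CPM, a log2 fold change of 4.04 ± 0.31 (edgeR adjusted p = 5.8e-06), and 1.72 under the equal-depth gate. Both passed under either gate, at a smaller size under the equal-depth one. Gja5, Gja4, Timp2, Mylk, Ace and Fbn1 had log2 fold changes of 2.66, 1.67, 1.81, 1.86, 1.52 and 2.05, and of 0.58, 0.32, 0.21, 0.56, 0.45 and 0.29 under the equal-depth gate, where none of the 6 passed. Of 4 connexins 2 and of 22 matrix genes 4 were higher on counts as deposited, and none of either under the equal-depth gate. The summed large-artery markers in the members were 873 to 2166 CPM at 12 months and 96.5 to 243 CPM at 3 months on counts as deposited. They were 1613 to 2318 CPM and 885 to 1477 CPM under the equal-depth gate, so the gates compare cells of different large-artery marker content, and the part of these markers in the differences was not tested.

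Fewer genes were lower at 12 months. Slc7a5, the large neutral amino acid transporter LAT1, stood at 61.7, 126 and 104 CPM against 259, 561, 432 and 386 CPM, a log2 fold change of -1.88 ± 0.29 (edgeR adjusted p = 0.0027), and -1.46 under the equal-depth gate. Nrep, a neuronal regeneration related protein, stood at 24.7, 22.6 and 21.5 CPM against 60.9, 86.5, 75.4 and 101 CPM, a log2 fold change of -1.76 ± 0.23 (edgeR adjusted p = 0.00076), and -1.70 under the equal-depth gate. Sox4, a SOXC transcription factor, stood at 0, 15.1 and 20.7 CPM against 61.8, 88.9, 61.5 and 86.9 CPM, a log2 fold change of -2.10 ± 0.31 (edgeR adjusted p = 0.0019). For all of these the ages did not overlap. Dbp, an output gene of the circadian clock, stood at 0, 23.9 and 19.9 CPM against 130, 80.0, 106 and 52.5 CPM and fell by 2.07, with an edgeR adjusted p of 0.012, and of up to 0.10 when a library was left out. Car4, Mt1, Mt2 and Slc38a5 had log2 fold changes of -1.69, -1.60, -1.35 and -1.94, and of -0.31, -0.78, -0.59 and -0.15 under the equal-depth gate, where they did not pass. Wnt5a, at -1.84 on counts as deposited, was at 0.22 under the equal-depth gate.

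**Figure D5:**
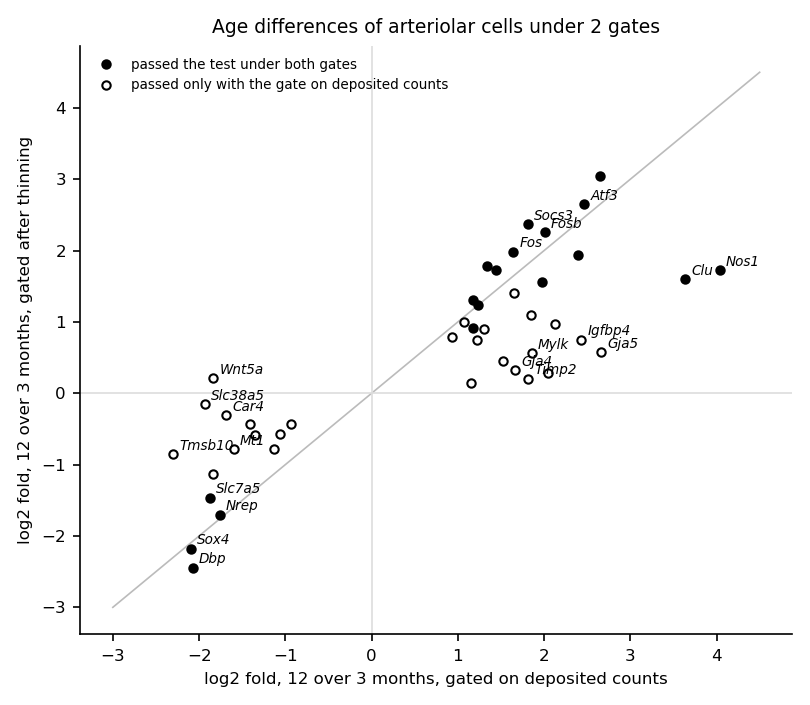
Log2 fold change of 12 months over 3 months for the named genes that passed on counts as deposited, plotted against the value under the equal-depth gate (each point 1 gene). Atf3 and Nrep lie near the line of equal values, and Fos and Socs3 lie above it. Gja5, Timp2, Mylk and Car4 lie closer to 0 on the equal-depth axis. Filled points passed under both gates, and Fam71a, at 7.78 on the first axis, is beyond the range drawn.

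No gene of the Notch lists passed for age. Of 3 Notch ligands, 3 receptors and 12 targets tested none passed, nor did any of 33 interferon genes, of 89 ribosomal protein genes or of 13 mitochondrially encoded genes. Dll4 stood at 117, 123 and 181 CPM against 102, 169, 122 and 141 CPM, a log2 fold change of 0.19 ± 0.22 (edgeR adjusted p = 0.84). Nos3 stood at 173, 215 and 196 CPM against 186, 212, 224 and 216 CPM, a log2 fold change of 0.00 ± 0.19. Of 14 shear-linked genes 1 was higher and none lower, Klf4 at 1.07 ± 0.23 (edgeR adjusted p = 0.025), and none passed under the equal-depth gate. Klf2 stood at 2814, 2629 and 2622 CPM against 2337, 2159, 2679 and 2606 CPM, a log2 fold change of 0.20 ± 0.20 (edgeR adjusted p = 0.8). The ages overlapped for Dll4, Nos3 and Klf2, and the SEs leave room for differences of their own size in either direction.

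Whether age differences were larger in arteriolar than in capillary cells was tested as an interaction, with the library as a block. Of 11186 genes 149 (1.33%) passed in edgeR's test, 61 with a higher (0.545%) and 88 with a lower (0.787%) age difference in arteriolar cells, against 53 under the equal-depth gate, of which 20 were among the 149. Klf2 had 3148, 3342 and 3239 CPM at 12 months against 1963, 1561, 1771 and 2030 CPM at 3 months in capillary sums, while its arteriolar levels overlapped between the ages. The difference of the differences was -0.71 ± 0.09 (edgeR adjusted p = 5.2e-06), and -0.86 under the equal-depth gate. Of 24 immediate early genes 7 had a smaller age difference in arteriolar cells and none a larger (median -0.43), and 8 under the equal-depth gate. Fos, picked for this comparison after its values were seen, had 4084, 2876 and 2249 CPM against 806, 561, 555 and 582 CPM in capillary sums, a larger gap than in arteriolar sums, with a difference of -0.65 (edgeR adjusted p = 0.0024).

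Gja1 moved the opposite way, by being lower at 12 months in capillary cells. Its capillary sums had 16.5, 15.2 and 21.2 CPM at 12 months against 44.3, 63.5, 57.3 and 60.6 CPM at 3 months, without overlap, and its arteriolar sums had 92.6, 59.6 and 73.3 CPM against 74.2, 103, 85.9 and 88.8 CPM, which overlapped. The interaction was 1.31 ± 0.16 (edgeR adjusted p = 3.5e-06), and 1.17 under the equal-depth gate. Cxcl12 had an interaction of -0.66 ± 0.10 (edgeR adjusted p = 4.4e-05), and -0.58 under the equal-depth gate. The ligands Jag1, Dll4 and Jag2, at 0.83, 0.69 and 0.46, were at 0.42, -0.22 and -0.20 under that gate and did not pass there.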

How the data were processed

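Each of 7 libraries was deposited as a matrix of UMI counts per gene and cell barcode. The authors made these counts with Cell Ranger 4.0.0 (12 months) or 6.1.1 (3 months), per the file headers, on mm10, per the submitters' processing notes. All 7 files shared 32285 genes. Barcodes were filtered and gated as described above, with no doublet removal (scrublet marked 5 to 33 members a library). UMIs were summed per library and class, in sums of at least 10 cells. Sums were tested with edgeR 4.0.16 in R 4.3.3 (TMM, filterByExpr, quasi-likelihood test, Benjamini-Hochberg adjustment over all genes tested, threshold 0.05). Class comparisons and the interaction had the library as a block, since both sums come from the same tissue. Levels are CPM of a sum, and SE is the log2 fold change divided by the square root of F. Shares were tested by exact permutation over 35 splits. Intervals and UMI floors cover counting error only.

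Named age genes passed, did not overlap between the ages and had at least 50 CPM in the higher group: the 10 highest and 10 lowest fold changes plus up to 2 passing genes of each list. Between classes they were the 8 highest and 8 lowest with the same direction in every library plus up to 3 genes of each list, and in the interaction test the 5 largest values in each direction. A set of arterial and barrier genes was added to each comparison whatever its result. Predicted, mitochondrial, ribosomal, sex-linked and gate genes were left out. The members, gene lists and tests were chosen with earlier results of these data known.

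On simulated counts with known changes, edgeR recovered 57.1% of genes changed 2-fold and 96.3% of those changed 4-fold for age. Of 9541 genes 200 had been changed, and 14 unchanged genes were also called. Alternatives were DESeq2 1.42.0, other filters, doublet removal with scanpy 1.11.5, 4 of 6 markers, thinning, leaving out each library, and other blocks. The equal-depth gate was added after seeing the data. Promoters came from RefSeq on GRCm38.p6 and coordinates from GENCODE M21.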

Additional observations from a re-analysis of the deposited data

Results flagged for a closer look

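Among the 4 libraries of 3 months, a sample stood far from the other 3 for a few named genes, in arteriolar sums. Fam71a was 0.883 CPM in replicate 1, where each of the 4 libraries held the CPM of 1 UMI and only the size of the sums differed, Gadd45g, a growth arrest gene, was 217 CPM in replicate 1, Meox1, a homeobox factor, was 11.5 CPM in replicate 4, and Timp2, a metalloprotease inhibitor, was 28.9 CPM in replicate 3. Chance alone marks about 1 in 20 such groups of samples.

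The age difference of arteriolar cells differed from that of capillary-gate cells, by edgeR's interaction test, for the following genes. It was lower in arteriolar cells for Wnt5a (-2.10, and 0.26 under the equal-depth gate), Car14 (-1.82, and 1.41), Flrt2 (-1.81, and -0.69), Nrp2 (-1.81, and -0.16) and Mt2 (-1.75, and -0.99). It was higher for Hrct1 (1.05, and -0.05 under the equal-depth gate), Ccnd2 (1.16, and 0.34), Spaar (1.23, and 0.30), Gja1 (1.31, and 1.17) and Clu (1.88, and 0.42). Under the equal-depth gate Mt2 and Gja1 passed and the other 8 did not.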

How the results depend on the processing

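Of 98 genes named against capillary cells that passed, 94 passed whichever library was left out and 73 under every other alternative, against 84 and 45 of 94 for large arteries, 45 and 32 of 61 for the Ccn3 and Lypd1 cells, 19 and 13 of 49 for age, and 10 and 0 of 16 for the interaction. The 183 age calls were 546 with no filter, 45 with a filter of 50 CPM in 3 sums, 20 with counts thinned to 1500 UMIs, 72 with at least 4 markers, 63 under the equal-depth gate, and 73 to 547 with a library left out (112 without 12-month replicate 1, 99 without 3-month replicate 3). Their share of higher genes was 72.7%, against 62.2% with the 50 CPM filter and 86.1% without 12-month replicate 3. The 2259 capillary calls were 1383 with the 50 CPM filter, 1191 with thinned counts and 1882 to 2402 with a library left out. The 1052 large-artery calls were 352 with thinned counts and 779 to 1109 with a library left out. The 344 calls against Ccn3 and Lypd1 cells were 219 in DESeq2 and 218 to 418 with a library left out (218 without 3-month replicate 3). The 149 interaction calls were 85 in DESeq2, 245 with no filter, 19 with thinned counts, 53 under the equal-depth gate (24.5% higher, against 40.9%) and 72 to 199 with a library left out (72 without 12-month replicate 3). Without the library as a block the counts were 863, 266, 126 and 0 for capillary, large artery, Ccn3 and Lypd1, and interaction. For age, the replicate number as a block gave 216 calls. Whether these numbers pair the samples was not tested. Same-numbered libraries had correlations of deviations of 0.0643, 0.122 and 0.00143, and differently numbered ones of -0.137 to 0.0742. The share difference of -2.15 points ranged from -3.41 to -0.835 with a library left out and reversed to 2.22, 1.60 and 0.833 when thinned to 1500 UMIs, to 1000 UMIs, and to 1500 UMIs without Gkn3. It kept its direction at -0.940 with at least 1000 genes per cell, and at -1.30 and -4.58 with at least 4 and at least 2 markers. With doublets removed it was -2.18, and with all barcodes as the denominator -2.24. Single genes reversed as follows, thinned counts first where 2 values stand. For age these were Wnt5a 0.22 (equal-depth), Timp2 -0.17 (thinned) and Cd74 -0.17 (doublets removed). Against capillary cells they were Ttr 0.15 (thinned), Ackr3 0.042 and Fth1 -0.0018 (equal-depth). Against large arteries they were Alpl 0.15 and 0.046, Jag2 0.080 and 0.0075, Efnb2 0.13 (equal-depth) and 0.012 (4 markers), Dll4 0.0118 (4 markers) and Hes1 -0.0195 (equal-depth). For the interaction they were Wnt5a 0.031 and 0.26, Car14 0.87 and 1.41, Jag2 -0.13 and -0.20, Dll4 -0.0497 and -0.22, and Hrct1 -0.26 and -0.0512. The causes were not tested, beyond the fewer UMIs of thinned counts. The comparison with Ccn3 and Lypd1 cells was not run on thinned counts or the equal-depth gate, where too few cells were left. Shallow 12-month replicate 1, with 110 members, limits what low genes can show.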

Other observations

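Of the genes higher at 12 months under both gates, 7 had a log2 fold change above 3 under the equal-depth gate, and they were chosen here after their values were seen. For Fam71a and Gm26802 the neighbours, as defined below, were the immediate early genes Atf3 and Fosb. The share of genes with such a neighbour over all genes was not computed. Fam71a lies 5479 bp from Atf3 on the same strand. Gm26802, a long noncoding RNA, lies 1926 bp from Fosb on the same strand and stood at 49.4, 198 and 209 CPM at 12 months against 14.1, 7.52, 10.2 and 3.82 CPM at 3 months, a log2 fold change of 4.47 on counts as deposited. Gm3336 lies 17927 bp from Jund on the same strand and stood at 12.3, 22 and 25.5 CPM against 0 CPM in the 4 libraries of 3 months, where 3 UMIs would be 0.788 to 2.65 CPM per library. The others were 1700026D11Rik, 5025 bp from Gpcpd1, Gm17056, 462 bp from Ifrd1, and Milr1, 11561 bp from Ddx5, each on the strand opposite its neighbour, and Alas2, an erythroid gene. Their log2 fold changes were 5.83, 5.00, 3.59 and 2.65 on counts as deposited, where all 4 passed in edgeR. A neighbour here is the nearest protein-coding gene with a mean of at least 50 CPM in members. Of these neighbours Atf3 and Fosb were higher at 12 months, at 2.47 and 2.01. Jund, Ifrd1 and Ddx5 did not pass, at 0.80, 0.69 and 0.24, and Gpcpd1 was lower, at -0.81 (edgeR adjusted p = 0.0405). Counting used different Cell Ranger versions at the 2 ages, and whether reads of the neighbouring genes enter these counts was not tested.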
